A study of Homo sapiens with 6 samples.

Results

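The 10 genes described here encode the enzymes that modify and cross-link collagen: the lysyl hydroxylases PLOD1, PLOD2 and PLOD3, the prolyl 4-hydroxylase catalytic subunits P4HA1 and P4HA2, and the lysyl oxidases LOX, LOXL1, LOXL2, LOXL3 and LOXL4. They were chosen by name, and all 10 were found among the 56982 identifiers shared by both deposited tables. The libraries were poly(A) RNA of U2OS, a human osteosarcoma cell line, grown in medium with serum to 65 to 75% confluency. G3C2 cells, 3 libraries, were labelled ZFP36L1 deficient after CRISPR/Cas9 editing, and 3 libraries came from wild-type (WT) U2OS cells. The titles label a pair of libraries b and another c, and the pair without a letter is called replicate 1 here. G3C2 is a single clone, so a difference from WT may belong to the edit or to the clone, and these cannot be told apart. ZFP36L1 itself had 238, 105 and 82.4 FPKM in G3C2 replicates 1, b and c, against 165, 57.1 and 128 FPKM in WT, so its mRNA level does not check the genotype.

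Newly made collagen chains are modified in the endoplasmic reticulum before they fold. Prolyl 4-hydroxylase, built from a P4HA catalytic subunit and the protein disulfide isomerase P4HB, makes the hydroxyproline that holds the triple helix stable at body temperature. Lysyl hydroxylases make hydroxylysine: PLOD2 acts on the short telopeptides at the chain ends, and PLOD3 also adds sugars to hydroxylysine. Outside the cell the copper-dependent lysyl oxidases convert lysine and hydroxylysine to aldehydes, which join neighbouring collagen and elastin molecules. Osteoblast-like cells make a matrix of type I collagen and use all of these steps. ZFP36L1 binds AU-rich stretches of the 3′ untranslated region (UTR) of mRNAs and recruits the machinery that shortens poly(A) tails.

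Levels are in FPKM, fragments per kilobase of gene length scaled to library size. The first table held replicate 1 and the second replicates b and c. The tables had separate scales, with summed FPKM of 712633 and 705014 in the first and of 235190 to 319282 in the second, so G3C2 and WT were compared within a table. The extremes of the second table are the c pair itself, with 319282 in G3C2 and 235190 in WT. Its recovered reads, 25844650 in G3C2 and 22614633 in WT, had been divided by 22558736 and 25406361 reads, so pair c differences lie higher in G3C2 than after rescaling to equal sums of FPKM. Recovered reads in the second table came to between 22614633 and 28977503 per library, and the first table's depth is unknown. WT replicate c stood apart by its mitochondrial transcripts, which took 13.8% of its summed FPKM against 6.67 to 8.72% in the other libraries of that table. Of the osteoblast lineage markers, RUNX2, MSX2 and SPP1 were at 1 FPKM or more in all 6 libraries, whereas SP7, ALPL, DLX5, BGLAP and IBSP were below 1 FPKM in all 6, IBSP at 0. Of 6 epithelial markers EPCAM alone was at 1 FPKM or more in all 6 libraries, and the list summed to 3.68 to 10.4 FPKM in G3C2 and 3.45 to 20.3 FPKM in WT. All 6 haematopoietic and all 4 skeletal muscle markers were below 1 FPKM in every library. Of 5 endothelial markers 4 were below 1 FPKM in every library. That list summed to 0.42 to 2.52 FPKM in G3C2 and 0.69 to 2.16 FPKM in WT.

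No member passed the test over all genes. The test was limma on log2(FPKM + 1), with Benjamini-Hochberg adjustment over 15001 genes at a threshold of 0.05, and it called 0 of the 10 members, beside 0.0467% of all tested genes, 0.02% higher and 0.0267% lower. At an unadjusted limma p under 0.05 there were 2 members, PLOD2 and P4HA1, both higher, beside 13.6% of all tested genes and 6.19% that were higher. PLOD1, PLOD2, PLOD3 and P4HA1 were higher in G3C2 in all 3 replicate pairs, which is 4 of 10 members beside 17.8% of all genes. After rescaling to equal sums of FPKM these were 2, PLOD2 and PLOD3, and LOXL3 was lower in all 3 pairs. The shares of all genes were not taken for these rescaled counts, so the counts cannot be judged against them. Without rescaling no member was lower in all 3 pairs, beside 18.6% of all genes. The median log2 fold change was 0.40 over the 5 hydroxylases, 0.18 over the 5 lysyl oxidases and 0.01 over all tested genes. By replicate pair the hydroxylase median was 0.25, 0.36 and 0.16 for 1, b and c, and the lysyl oxidase median was 0.80, 0.22 and -0.51. After rescaling to equal sums of FPKM the pair c differences were 0.54 for PLOD2 and 0.33 for PLOD3. They were -0.28 for PLOD1, -0.32 for P4HA1 and -0.56 for P4HA2, so the positive hydroxylase median of pair c depends on the scaling. Those of the lysyl oxidases ran from -1.01 to -0.27.

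**Figure D1:**
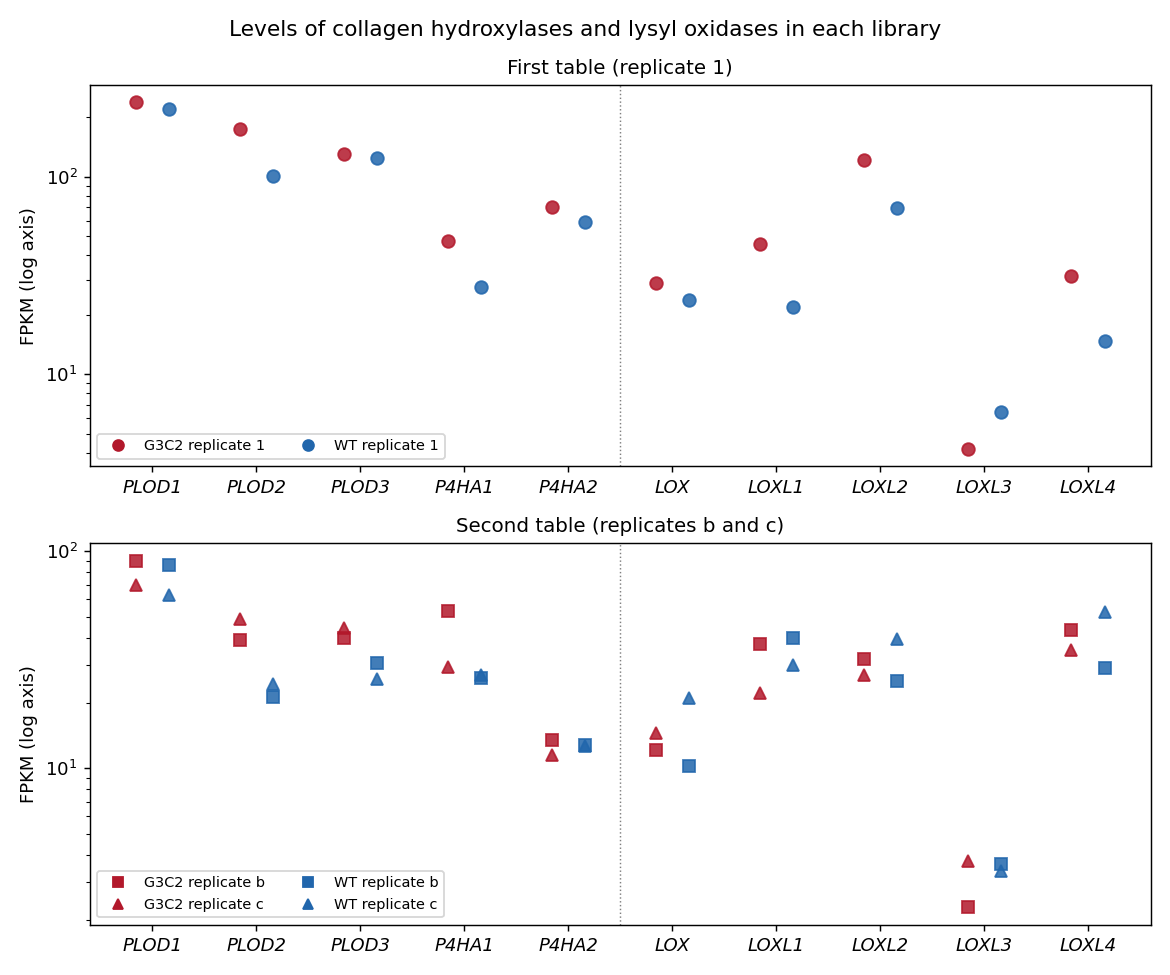
FPKM of each member in each library on a log axis, with the first table above and the second below, G3C2 in red left of WT in blue, and marker shapes for replicates 1, b and c. In the second table both G3C2 libraries lie above both WT libraries for PLOD2, PLOD3 and P4HA1, while the genotypes overlap for every lysyl oxidase.

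PLOD2, the telopeptide lysyl hydroxylase, had the largest limma estimate of the 10 genes, although LOXL4, LOXL1 and LOXL2 differed more in pair 1 and P4HA1 in pair b. PLOD2 (ENSG00000152952, chromosome 3, 146069440 to 146163653, minus strand; all coordinates are of GRCh38) had 174, 38.8 and 48.5 FPKM in G3C2 replicates 1, b and c, against 101, 21.3 and 24.4 FPKM in WT. The G3C2 libraries were higher in each table with no overlap, by 1.72, 1.82 and 1.98 times in pairs 1, b and c. After rescaling to equal sums of FPKM the log2 differences of PLOD2 were 0.77, 0.89 and 0.54, so pair c then had the smallest. The recovered reads behind the second table were 7876 and 8366 in G3C2 and 4831 and 4747 in WT. In the limma fit PLOD2 had a log2 fold change of 0.86 with an SE of 0.17 over 3 libraries per genotype (adjusted p = 0.149, unadjusted p = 0.00184), with a 95% interval of 0.46 to 1.26. In these bulk libraries, more RNA per cell and more cells that express the gene cannot be told apart. The estimate lay between 0.71 and 0.94 over all other settings tried. Only without replicate c, a fit with 1 residual degree of freedom that called 6.03% of all genes, 2.99% as higher, did PLOD2 pass (0.81, limma adjusted p = 0.00892).

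The longest annotated 3′ UTR of PLOD2, 1277 bases in GENCODE 29, held TATTTAT, the core that ZFP36 proteins bind, at 2 positions, and that of P4HA1, 1005 bases, at 1. That is 2 of 10 members, beside 31.1% of the 19145 genes with a searched UTR. The other 8 members held none, although LOX had the longest UTR of the 10 at 3548 bases. The motif was searched on the transcript strand alone with overlaps counted. The shorter pentamer ATTTA, the core of AU-rich elements, occurred 12 times in LOX, 11 in PLOD2, 2 each in P4HA1, LOXL2 and LOXL4, 1 each in PLOD1 and LOXL3 and not in PLOD3, P4HA2 or LOXL1. Among genes whose UTR was within 20% of the same length, the share was 29.4% for PLOD2, 23.6% for P4HA1 and 59.1% for LOX. A match is a description of the sequence and does not show binding. The sites are printed 5′ to 3′ with the motif in capitals, at chr3:146070466-146070494, chr3:146070331-146070359 and chr10:73007230-73007258, all on the minus strand of GRCh38.
PLOD2 first site: aaaaacttaaaTATTTATttctatgcttt
PLOD2 second site: gggaagattttTATTTATcaaaatataga
P4HA1 site: caacaatgaccTATTTATgatcttaaatc

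PLOD1 and PLOD3 had smaller estimates. PLOD1, the lysyl hydroxylase of the helical part of collagen (chromosome 1, 11934205 to 11975538, plus strand), had 238, 90.5 and 69.9 FPKM in G3C2 replicates 1, b and c, against 221, 86.5 and 62.5 FPKM in WT. In the second table the genotypes overlapped, and the log2 fold change was 0.11 (SE 0.21, limma adjusted p = 0.84), with a 95% interval of -0.39 to 0.61. Its direction turned with quantile normalization (-0.10), with rescaling to equal sums of FPKM (-0.031), with limma-voom on recovered reads (-0.076) and without WT replicate c (-0.022). PLOD3, the lysyl hydroxylase that also carries glycosyltransferase activity (chromosome 7, 101205977 to 101218420, minus strand), had 131, 39.7 and 44.4 FPKM in G3C2, against 125, 30.7 and 25.9 FPKM in WT. The G3C2 libraries of the second table lay above both WT libraries, and the first table differed by 1.05 times. PLOD3 had a log2 fold change of 0.40 (SE 0.18, limma adjusted p = 0.413), between 0.21 and 0.56 over the other settings. Of the 5671 exonic bases of PLOD3, 429 overlap exons of ZNHIT1 on the other strand, and without a stated strand setting reads there cannot be assigned.

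P4HA1 was higher in G3C2 while P4HA2 differed little. P4HA1, the main catalytic subunit of prolyl 4-hydroxylase in most cells (ENSG00000122884, chromosome 10, 73007217 to 73096974, minus strand), had 47.2, 53.0 and 29.4 FPKM in G3C2 replicates 1, b and c, against 27.8, 25.9 and 27.0 FPKM in WT. The WT libraries of the second table were close together, and G3C2 replicate c was only 1.09 times its WT counterpart, against 2.04 times for replicate b. The log2 fold change was 0.62 (SE 0.24, limma adjusted p = 0.337, unadjusted p = 0.0385), with a 95% interval of 0.045 to 1.199. After rescaling to equal sums P4HA1 overlapped between genotypes in the second table and its pair c difference was -0.32. Without replicate c its log2 fold change was 0.87 and passed (limma adjusted p = 0.00976), and over the other settings it lay between 0.39 and 0.88. P4HA2, a second catalytic subunit (chromosome 5, 132191838 to 132295315, minus strand), had 70.1, 13.6 and 11.5 FPKM in G3C2, against 59.0, 12.9 and 12.6 FPKM in WT. Its log2 fold change was 0.07 (SE 0.15, limma adjusted p = 0.869), and the 95% interval of -0.30 to 0.43 bounds the difference. The direction of P4HA2 turned with the second table alone (-0.025), with rescaling to equal sums (-0.075) and with limma-voom (-0.22).

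**Figure D2:**
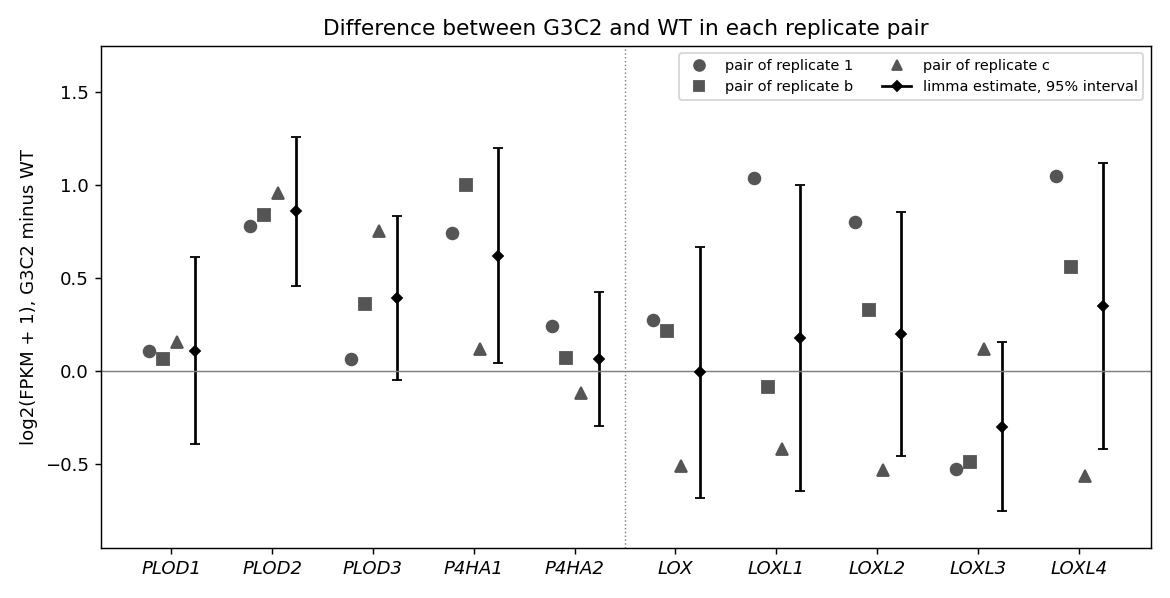
Difference of log2(FPKM + 1), G3C2 minus WT, for each member, with grey markers for the pairs of replicates 1, b and c and black diamonds for the limma estimate with its 95% interval. Values are without rescaling: the PLOD2 pairs lie between 0.78 and 0.96, whereas the LOXL4 pairs run from -0.56 to 1.05.

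Ratios between members within a library do not depend on how libraries are scaled to each other. The FPKM share of PLOD2 among the 3 lysyl hydroxylases was 32.1%, 23.0% and 29.8% in G3C2 replicates 1, b and c, against 22.6%, 15.4% and 21.7% in WT. PLOD1 had a smaller share in G3C2, 43.9%, 53.5% and 42.9%, against 49.5%, 62.5% and 55.4% in WT, and in neither case did the genotypes overlap within a table. P4HA1 over P4HA2 was 0.67, 3.90 and 2.55 in G3C2 and 0.47, 2.02 and 2.14 in WT. PLOD2 over LOX was 6.03, 3.22 and 3.33 in G3C2 and 4.25, 2.08 and 1.15 in WT. Both ratios were higher in G3C2 without overlap. The ratios were chosen after values were seen, and no share over other gene ratios was taken beside them. The PLOD1 and PLOD2 shares are parts of the same sum and are not separate results. PLOD2 over COL1A1 overlapped, at 0.19, 0.16 and 0.25 in G3C2 and 0.48, 0.26 and 0.13 in WT. The share of PLOD3 among the lysyl hydroxylases, each member's share of the summed lysyl oxidases, and P4HB and COL1A1 over the P4HA pair also overlapped. In FPKM, both G3C2 libraries lay above both WT libraries in the second table, with the same direction in the first, for PLOD2, PLOD3 and P4HA1, 3 of 10 members, beside 14.9% of all genes, and the opposite held for none, beside 14.8%. After rescaling to equal sums it held for PLOD2 and PLOD3, beside 9.37% of all genes, and its opposite for LOXL3, for which no share of all genes was taken.

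**Figure D3:**
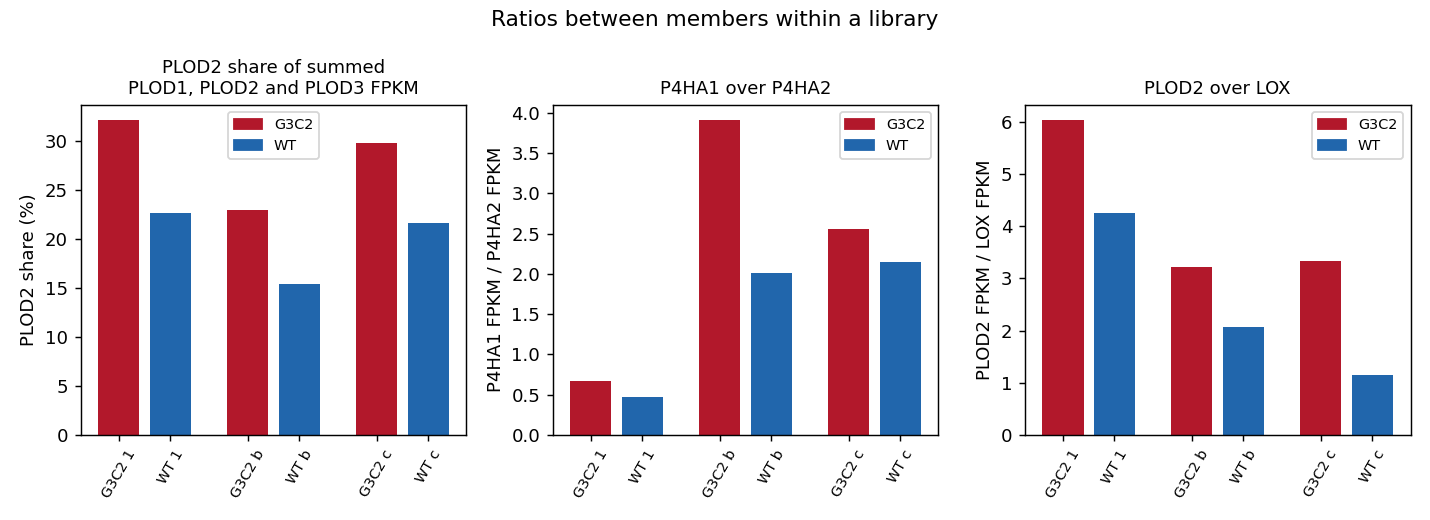
Bars from 0 show, for each library, the PLOD2 share of summed lysyl hydroxylase FPKM in percent, the ratio of P4HA1 to P4HA2 FPKM and the ratio of PLOD2 to LOX FPKM, with G3C2 in red left of WT in blue for replicates 1, b and c. Each G3C2 bar is taller than its WT neighbour in all 3 panels, with 32.1% against 22.6% for the PLOD2 share in replicate 1.

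PLOD2, P4HA1 and LOX are among the known targets of hypoxia-inducible factors, whose binding core is ACGTG or GCGTG. Their RefSeq promoter windows, which lie mostly upstream of an annotated start on GRCh38.p14, are shown so that these starts can be compared. ACGTG was searched on both strands and stands in capitals, as CACGT where it lies on the other strand. It occurred in 21.4% of 35116 RefSeq windows of 300 bases. PLOD2 had 2 matches, P4HA1 had 1 and the upstream start of LOX had 4. The other LOX windows, both downstream, overlap each other and share the same 1 match. LOXL2 was not searched. The windows of PLOD1, PLOD3, P4HA2, LOXL1, LOXL3 and LOXL4 held no ACGTG, which says only that these letters are absent there. These members were not sorted by whether they are such targets, so motif and target status cannot be compared. GCGTG, which is not capitalized, occurred in 36.5% of windows. PLOD1 had 2 matches to it, PLOD2 and 1 LOXL3 window had 1 each, and the overlapping downstream LOX windows shared 1. P4HA1 and the upstream start of LOX had none. The windows lie at chr3:146161135-146161434, chr10:73096817-73097116 and chr5:122078210-122078509, all on the minus strand.
PLOD2 promoter: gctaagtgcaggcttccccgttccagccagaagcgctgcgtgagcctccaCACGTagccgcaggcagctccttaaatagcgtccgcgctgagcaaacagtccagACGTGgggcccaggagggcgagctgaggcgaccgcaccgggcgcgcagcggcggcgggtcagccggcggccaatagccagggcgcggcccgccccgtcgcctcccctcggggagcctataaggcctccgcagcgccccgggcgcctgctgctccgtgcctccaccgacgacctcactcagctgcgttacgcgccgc
P4HA1 promoter: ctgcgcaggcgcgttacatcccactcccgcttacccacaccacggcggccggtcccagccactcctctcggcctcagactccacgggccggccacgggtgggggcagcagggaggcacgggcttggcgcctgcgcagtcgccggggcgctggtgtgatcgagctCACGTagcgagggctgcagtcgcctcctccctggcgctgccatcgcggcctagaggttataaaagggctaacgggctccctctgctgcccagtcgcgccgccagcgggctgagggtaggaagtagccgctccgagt
LOX promoter: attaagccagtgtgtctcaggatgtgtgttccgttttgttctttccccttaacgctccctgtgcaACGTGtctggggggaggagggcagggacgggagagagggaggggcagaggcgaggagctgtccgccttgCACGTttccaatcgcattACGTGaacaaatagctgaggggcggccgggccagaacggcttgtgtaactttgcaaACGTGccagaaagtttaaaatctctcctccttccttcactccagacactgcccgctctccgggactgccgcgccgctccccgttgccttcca

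The lysyl oxidases varied more between libraries than between genotypes. LOX, the founding member of the family (ENSG00000113083, chromosome 5, 122063195 to 122078360, minus strand), had 28.9, 12.1 and 14.6 FPKM in G3C2 replicates 1, b and c, against 23.8, 10.3 and 21.2 FPKM in WT. In the second table both G3C2 libraries lay between the WT libraries. The log2 fold change of LOX was -0.01 (SE 0.28, limma adjusted p = 0.994), with a 95% interval of -0.68 to 0.67, or 0.62 to 1.59 times the WT level. Over the fits that left out a library or a pair it ran from -0.25 to 0.31, the highest without WT replicate c.

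LOXL2 and LOXL4 followed each other across the libraries. LOXL2, which acts on type IV collagen of basement membranes (chromosome 8, 23297189 to 23425328, minus strand), had 122, 31.8 and 26.8 FPKM in G3C2 replicates 1, b and c, against 69.2, 25.1 and 39.3 FPKM in WT. LOXL4, a close relative of LOXL2 and LOXL3 (chromosome 10, 98247690 to 98268250, minus strand), had 31.6, 43.2 and 35.2 FPKM in G3C2, against 14.7, 28.9 and 52.5 FPKM in WT. For both genes WT replicate c was the highest of the second table and WT replicate b the lowest. Their log2 fold changes were 0.20 for LOXL2 (SE 0.27, limma adjusted p = 0.768) and 0.35 for LOXL4 (SE 0.32, limma adjusted p = 0.653). Without replicate c, LOXL4 passed at 0.81 (limma adjusted p = 0.0219) and LOXL2 did not (0.57, limma adjusted p = 0.0537). With the second table alone both were below 0, at -0.10 for LOXL2 and at -0.00096 for LOXL4. After the table mean was taken off, LOXL2 and LOXL4 had a Pearson r of 0.99 over the 6 libraries, which share genotype and table. This was the highest r between any 2 members. By the same measure LOXL1 and P4HA2 had 0.96 and LOXL3 and P4HA1 had -0.96.

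LOXL1 and LOXL3 also went different ways in different pairs. LOXL1, which is needed for elastic fibre upkeep in mice (chromosome 15, 73925989 to 73952137, plus strand), had 45.8, 37.4 and 22.2 FPKM in G3C2 replicates 1, b and c, against 21.8, 39.7 and 29.99 FPKM in WT. It was 2.11 times higher in G3C2 for replicate 1, and in the second table the genotypes overlapped. Its log2 fold change was 0.18 (SE 0.34, limma adjusted p = 0.84), and -0.25 with the second table alone. The antisense gene LOXL1-AS1 shares 335 of the 3637 exonic bases of LOXL1. It had 45.6, 6.32 and 7.16 FPKM in G3C2 and 35.1, 8.54 and 10.4 FPKM in WT, and without strand its reads cannot be told from those of LOXL1. LOXL3, the member at the lowest level (chromosome 2, 74532414 to 74555690, minus strand), had 4.17, 2.29 and 3.75 FPKM in G3C2, against 6.47, 3.62 and 3.36 FPKM in WT. It was the one member whose limma estimate lay below 0 in every setting that tested it, at -0.30 (SE 0.19, limma adjusted p = 0.525), from -0.51 to -0.18. Between 265 and 468 recovered reads stood behind it in the second table. Of its 4363 exonic bases, 625 overlap HTRA2 and 216 overlap DOK1, both on the other strand. HTRA2 and DOK1 reached 20.7 and 23.7 FPKM, and without a stated strand setting reads there cannot be assigned.

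Summed over the family, lysyl oxidase FPKM was 232, 127 and 103 in G3C2 replicates 1, b and c, against 136, 108 and 146 in WT. The 3 lysyl hydroxylases summed to 543, 169 and 163 FPKM in G3C2, against 447, 138 and 113 FPKM in WT. The P4HA pair summed to 117, 66.5 and 40.9 FPKM in G3C2, against 86.7, 38.8 and 39.6 FPKM in WT. Without rescaling only the lysyl oxidase sum was lower in G3C2 in 1 of these pairs, that of replicate c. After rescaling to equal sums of FPKM, P4HA1 and P4HA2 were each lower in pair c too (-0.32 and -0.56), so this contrast depends on the scaling. WT replicate c is also the library with the highest mitochondrial share, whose part in the lysyl oxidase values was not tested.

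PLOD1 had the highest level and LOXL3 the lowest of the 10 genes in all 6 libraries. In the second table PLOD2 was the second highest on average in G3C2, at 43.7 FPKM, and the seventh in WT, at 22.9 FPKM. In G3C2 the ranges of PLOD2, PLOD3, P4HA1, LOXL4, LOXL1 and LOXL2 overlapped from each to the next in the order of their levels. In WT the order from PLOD1 down was LOXL4, LOXL1, LOXL2, PLOD3 and P4HA1, in which each range from LOXL4 on overlapped the next, and PLOD2 lay below that of P4HA1 without overlap. LOX and P4HA2 overlapped in both genotypes, at 13.3 and 12.5 FPKM in G3C2 and 15.7 and 12.7 FPKM in WT. In replicate 1 P4HA2 lay above P4HA1 in both genotypes, opposite to the second table.

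The genes around PLOD2 and P4HA1 had medians near those of all coding genes. Of the protein-coding genes within 5 Mb of PLOD2, 31 were tested, and their median log2 difference was -0.02, -0.04 and 0.18 for replicates 1, b and c. Around P4HA1 the 62 tested genes had medians of 0.01, 0.00 and 0.23, and around PLOD3 the 93 had -0.05, 0.02 and 0.24. All tested protein-coding genes had -0.07, -0.01 and 0.10. In pair c P4HA1 itself differed by 0.12, less than the median of 0.23 around it. PLOD1 differed by 0.16 in that pair, beside a median of 0.17 around it. The 18 genes around LOX had 0.24, 0.13 and 0.06, near the LOX differences of 0.27 and 0.22 in replicates 1 and b but not that of -0.51 in c.

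Of the genes that help collagen hydroxylation and folding, none of 19 tested passed, while 8 were higher and 3 lower in G3C2 in all 3 pairs, with a median log2 fold change of 0.10. Beside this list and those below, 17.8% of all tested genes were higher and 18.6% lower in all 3 pairs. The list counts use FPKM without rescaling, where pair c differences lie higher in G3C2 than after it, and were not repeated after rescaling. SERPINH1, the collagen chaperone HSP47, had 455, 224 and 224 FPKM in G3C2 replicates 1, b and c, against 301, 160.0 and 121 FPKM in WT. Its log2 fold change was 0.65 (SE 0.20, limma adjusted p = 0.248), with no overlap between genotypes in the second table. P4HB, the partner subunit of P4HA1 and P4HA2, had 498, 144 and 147 FPKM in G3C2, against 444, 137 and 121 FPKM in WT, a log2 fold change of 0.17 (SE 0.18, limma adjusted p = 0.697) that turned to -0.10 with quantile normalization and to -0.014 with limma-voom. FKBP10, a prolyl isomerase that assists telopeptide lysine hydroxylation, had 129, 79.0 and 66.4 FPKM in G3C2, against 97.7, 54.8 and 58.9 FPKM in WT. HSPA5, the general chaperone BiP, was at 0.38 (limma adjusted p = 0.424) and TMEM38B, an endoplasmic reticulum cation channel, at 0.50 (limma adjusted p = 0.37). SLC39A13, a zinc transporter whose loss in humans lowers collagen hydroxylation, had 13.7, 10.8 and 10.6 FPKM in G3C2, against 20.9, 14.0 and 21.8 FPKM in WT (log2 fold change -0.63, SE 0.19, limma adjusted p = 0.246).

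Among genes of procollagen export and processing, none of 15 tested passed, 2 were higher and 4 lower in all 3 pairs, and the median was -0.13. The procollagen N-proteinases ADAMTS3 and ADAMTS2 stood on opposite sides. ADAMTS3 had 26.9, 8.14 and 8.09 FPKM in G3C2 replicates 1, b and c, against 16.5, 4.85 and 4.13 FPKM in WT (log2 fold change 0.71, SE 0.13, limma adjusted p = 0.135). ADAMTS2 had 3.52, 1.37 and 0.86 FPKM in G3C2, against 7.33, 4.89 and 9.90 FPKM in WT (log2 fold change -1.58, SE 0.32, limma adjusted p = 0.156). Without replicate b it passed at -1.72 (limma adjusted p = 0.00432) and without replicate c at -1.10 (limma adjusted p = 0.0225), each with 1 residual degree of freedom, and limma-voom gave -2.85. The 69 genes within 5 Mb of ADAMTS2 also lay lower, with medians of -0.61, -0.40 and -0.23, and their part in its difference was not tested. SPARC, a collagen-binding matrix protein, was at -0.02, FURIN, a proprotein convertase, at 0.01, PCOLCE2, an enhancer of C-proteinase, at -0.49 and MIA3, the procollagen export receptor TANGO1, at -0.24, with limma adjusted p from 0.406 to 0.983.

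Fibrillar collagen chains, the substrates of these enzymes, had 6 of 11 genes tested, none called, 2 higher in all 3 pairs and a median of 0.03. The 2 were COL1A1 and COL5A2, at 0.06 and 0.17 in pair c without rescaling. After rescaling to equal sums pair c differences lie lower, and these 2 were not counted again. COL1A1, the main chain of type I collagen, had a log2 fold change of 1.25 (SE 0.41, limma adjusted p = 0.278) with pair differences of 2.10, 1.59 and 0.06. Set against LOX in the same library, COL1A1 was 31.1, 20.6 and 13.2 times as high in G3C2 replicates 1, b and c, against 8.79, 8.004 and 8.68 times in WT. COL5A2, a chain of type V collagen, had 82.7, 67.9 and 53.5 FPKM in G3C2, against 46.9, 33.5 and 47.4 FPKM in WT (log2 fold change 0.66, limma adjusted p = 0.25). COL11A1, a chain of type XI collagen, had pair differences of 0.54, 0.81 and -1.18, a log2 fold change of 0.06 and limma adjusted p = 0.957.

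Elastic fibre genes and partners of the lysyl oxidases, with 20 of 23 tested, had none called, 4 higher and 1 lower in all 3 pairs and a median of 0.01. EMILIN1, an elastic fibre glycoprotein, had 0.23, 0.40 and 0.27 FPKM in G3C2 replicates 1, b and c, against 2.42, 5.07 and 13.2 FPKM in WT (log2 fold change -2.36, SE 0.40, limma adjusted p = 0.129). It passed without replicate b (-2.48, limma adjusted p = 7.84e-05) and without replicate c (-1.79, limma adjusted p = 0.0118), and was at -3.82 with a pseudocount of 0.1 and at -4.77 with limma-voom. EFEMP1, also called fibulin-3, had 505, 101 and 135 FPKM in G3C2, against 259, 72.6 and 102 FPKM in WT (log2 fold change 0.62, limma adjusted p = 0.344). FBLN5, the elastin-binding fibulin that interacts with LOXL1, was at 0.55 (limma adjusted p = 0.286). The 45 genes within 5 Mb of FBLN5 on chromosome 14 had medians of 0.79, 0.47 and 0.59, and their part in its difference was not tested. FN1, fibronectin, was at -0.12, LTBP4, a latent TGF-beta binding protein, at 0.06 and MFAP5, a microfibril protein, at 0.66, with limma adjusted p from 0.388 to 0.894.

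The hypoxia list, with 27 of 30 tested, had none called, 3 higher and 3 lower in all 3 pairs and a median of -0.03. SLC2A1, the glucose transporter GLUT1, had 137, 55.5 and 45.6 FPKM in G3C2 replicates 1, b and c, against 58.2, 28.9 and 32.4 FPKM in WT (log2 fold change 0.87, SE 0.19, limma adjusted p = 0.165). PFKFB4, a regulator of glycolysis, was at -0.64 (limma adjusted p = 0.185) and EGLN3, an oxygen-sensing prolyl hydroxylase, at -0.38 (limma adjusted p = 0.32). The glycolytic enzymes ENO1, LDHA and PGK1 had pair differences from -0.24 to -0.12 in replicates 1 and b and from 0.92 to 1.09 in replicate c. PLOD2 at 0.86 and P4HA1 at 0.62 stood beside list members on both sides of 0. Over the 5 whole lists, 15 of 87 tested genes passed without replicate c, 11 higher and 4 lower, beside 6.03% of all genes and 3 of 10 members. The named ones were SERPINH1, FKBP10, ADAMTS3, EFEMP1, COL1A1, COL5A2, COL11A1 and SLC2A1, which were higher, and PCOLCE2, ADAMTS2 and EMILIN1, which were lower.

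**Figure D4:**
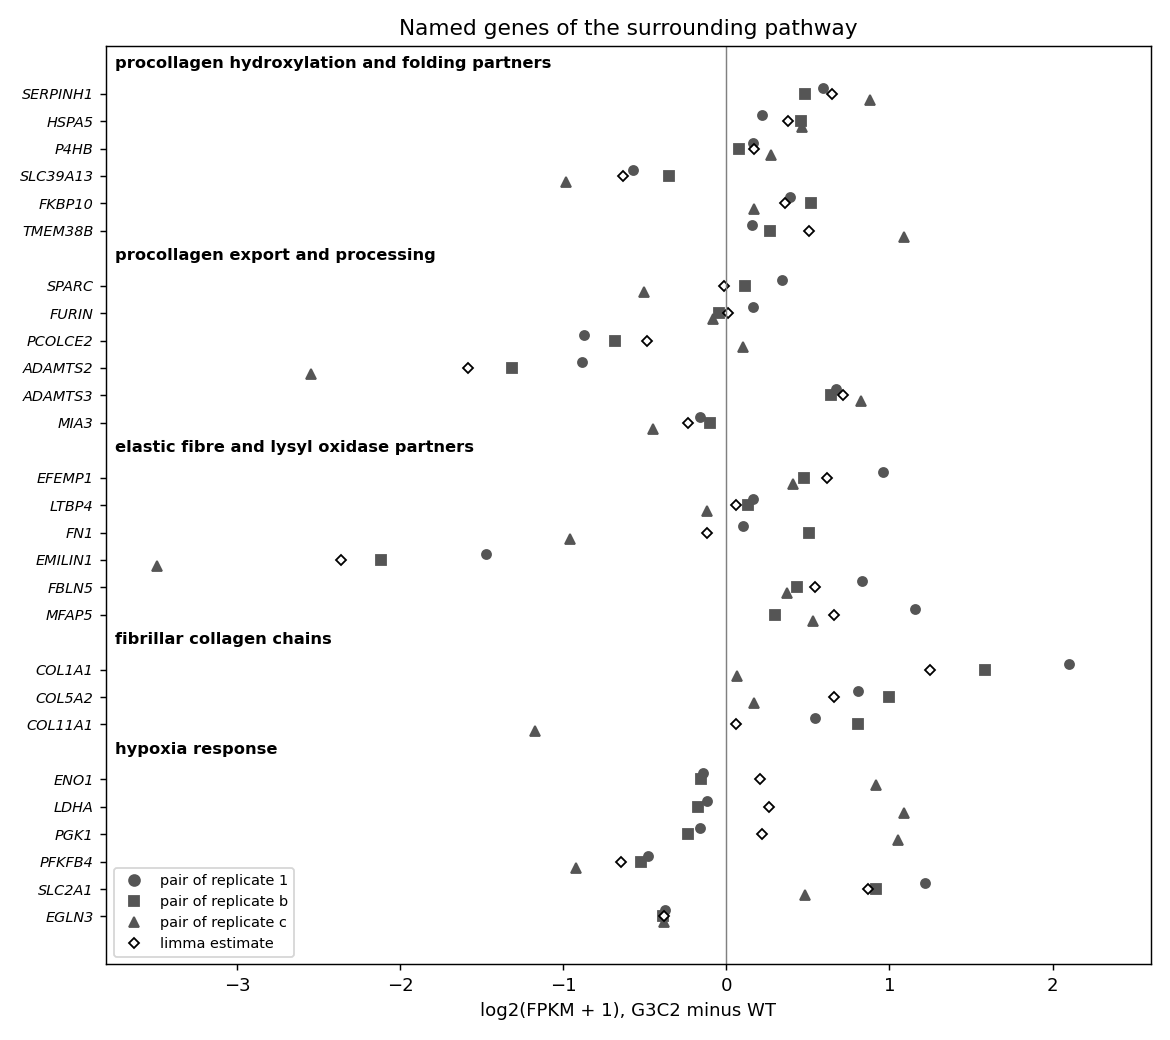
Difference of log2(FPKM + 1), G3C2 minus WT, for the 27 named pathway genes in 5 lists, with grey markers for the pairs of replicates 1, b and c and open diamonds for the limma estimate. SERPINH1 lies right of 0 and SLC39A13 and EMILIN1 left of 0 in all 3 pairs, while COL11A1 runs from -1.18 to 0.81.

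The protein-coding genes whose pattern over the 6 libraries was most like that of PLOD2, after the table mean was taken off, were CD46, GFPT1 and TMEM209, with a Pearson r between 0.997 and 0.999. Their log2 fold changes were smaller than that of PLOD2, at 0.29, 0.35 and 0.30. For LOX the most alike were PCNX4, SCRIB and SS18, with r between 0.970 and 0.991 and log2 fold changes of -0.01, -0.02 and -0.07. These values are descriptions over 6 libraries that share genotype and table.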

How the data were processed

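Poly(A) RNA libraries of 3 G3C2 and 3 WT cultures were grouped by their titles. FPKM per gene were made and deposited by the authors, per the file headers, in 2 tables with separate scales. CASAVA, HISAT2 and the build GRCh38.p12 are listed in the submitters' processing notes. The counter, strand setting and versions are not given in the sources used here. Identifiers were matched to GENCODE 29 (56868 of 56982 shared by both tables). Reads of the second table were recovered by dividing FPKM times exon length by its smallest step, with 97.0 to 97.4% of values whole within 0.02 reads.

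The 15001 genes that reached 1 FPKM in 2 or more libraries entered a limma 3.58.1 model (R 4.3.3) of log2(FPKM + 1), with terms for genotype and table, a mean-variance trend and two-sided tests, checked on simulated data. Fold changes on this scale understate changes of low genes. Since titles do not tie libraries to culture occasions, p-values reflect only spread among these libraries, which may be technical. Libraries with the same label in the same table were taken as pairs. Deviations of same-labelled libraries from their genotype mean correlated at 0.93, 0.80 and 0.60 (labels 1, b and c). The separation into tables produces such correlations by itself, so they do not show pairing. Within the second table r for b minus c was -0.17, which does not show pairing of b and c either.

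The members, lists and tests were chosen with earlier results of these data known. Named list genes were those called, the 3 most abundant and up to 3 more that went the same way in all 3 pairs, by their smallest difference. The gene counts without overlap in the second table, also after rescaling, the neighbours of list genes, the within-library ratios and sums, the LOXL2 and LOXL4 correlation and the promoter search were added after values were seen. Tables were handled in Python 3.11.15 with pandas 2.3.3. A marker gene of the osteoblast list is not reported here.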

Additional observations from a re-analysis of the deposited data

How the results depend on the processing

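The limma-voom fit on recovered reads was chosen after the data were seen. No member was called in any setting except without replicate c, where 3 were called higher (0 to 3 over the leave-outs, none lower). PLOD2, PLOD3 and P4HA1 kept their direction in all 20 alternatives, and LOXL3 in the 19 that tested it. Genes called higher over all genes, against 3, were 5 with equal medians. They were 0 with no filter (2990 genes at an unadjusted p under 0.05), without a table term (223), with the replicate block (1782), from the second table alone (1110), with rescaling to equal sums of FPKM (2033) and with limma-voom (1212). Genes called lower, against 4, were 1 with the replicate block or a mean FPKM of at least 5, and 0 with no filter, no table term, the second table alone, rescaling or limma-voom. Leave-outs gave 0 to 448 higher and 0 to 457 lower. The replicate block changed no call of a member (PLOD2 0.86, limma adjusted p = 0.237). The median over members was 0.19, against -0.20 with limma-voom, and -0.013 to 0.36 over the leave-outs. Rescaling and limma-voom moved the median of all genes by -0.12. Relative to that median PLOD2 was at 0.84 in both, P4HA1 at 0.60 and 0.49 and PLOD1 at 0.08 and 0.03. Members higher in all 3 pairs were 2, not 4, with rescaling or quantile normalization (PLOD2 and PLOD3), and 1 was lower with rescaling (LOXL3). Shares of all genes were not taken for these counts. The cause of these changes was not tested.

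Direction turned with limma-voom for PLOD1 (-0.076), P4HA2 (-0.22), LOXL1 (-0.45), LOXL2 (-0.30), LOXL4 (-0.19), P4HB (-0.014), FURIN (-0.26), LTBP4 (-0.18) and COL11A1 (-0.39). With the second table alone it turned for P4HA2 (-0.025), LOXL1 (-0.25), LOXL2 (-0.10), LOXL4 (-0.00096), FURIN (-0.065) and COL11A1 (-0.18), with rescaling for PLOD1 (-0.031), P4HA2 (-0.075), FURIN (-0.13), LTBP4 (-0.082) and COL11A1 (-0.086), and with equal medians for LOX (0.024) and SPARC (0.015). With quantile normalization it turned for PLOD1 (-0.10), P4HB (-0.10), FURIN (-0.18), LTBP4 (-0.13), COL11A1 (-0.066), ENO1 (-0.078), LDHA (-0.088) and PGK1 (-0.044). Over the leave-outs values ran from -0.022 to 0.24 for PLOD1, -0.025 to 0.16 for P4HA2, -0.25 to 0.31 for LOX, -0.25 to 0.51 for LOXL1, -0.10 to 0.57 for LOXL2, -0.00096 to 0.81 for LOXL4, -0.19 to 0.23 for SPARC, -0.065 to 0.067 for FURIN, -0.011 to 0.16 for LTBP4, -0.43 to 0.305 for FN1, -0.32 to 0.68 for COL11A1, -0.15 to 0.385 for ENO1, -0.15 to 0.48 for LDHA and -0.20 to 0.45 for PGK1. Leaving out either library of replicate 1 gives the estimate of the second table alone. No depth is known for the first table, which leaves its counting error unknown.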
